A study of Mus musculus with 2 samples.

Results

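Solute carriers of the Slc1, Slc2, Slc5, Slc7, Slc30, Slc34, Slc38 and Slc39 families bring sugars, amino acids, phosphate and zinc into or out of cells. Their genes were followed in mammary glands of mice with 1 or both copies of Gata3 floxed. They were chosen by symbol in the platform's probe-to-gene table, and 73 genes with 116 features were found among 15056 genes. By cargo there were 20 genes of the sugar families (Slc2 and Slc5), 31 of the amino acid families (Slc1, Slc7 and Slc38), 3 of the phosphate family (Slc34) and 19 of the zinc families (Slc30 and Slc39). Of these genes, 38 had 1 feature and 35 had several, which were averaged on each array.

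Adult GATA-3flox/+; WAP-rtTA-Cre mice, called het below, were set against adult GATA-3flox/flox; WAP-rtTA-Cre mice, called null. Both genotypes carried the transgene and both received doxycycline for 5 days, which lets cells with an active WAP promoter, that of a milk protein gene of the secretory epithelium, make Cre recombinase and lose the floxed Gata3 sequence. In the het gland such cells keep an unfloxed copy, while in the null gland both copies are floxed. Fat, stroma and other cells of the gland that do not use this promoter keep Gata3 in either genotype. Het RNA was in Cy5 and null RNA in Cy3 on both of the 2 two-colour spotted arrays. With 0 dye swaps, a dye effect and a genotype effect cannot be told apart. Nothing in the labels tells separate animals from pooled ones, so an SD here is the spread of 2 arrays and may be technical.

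A value below is the deposited log ratio of the channels, read as log2. Its numerator is not named in the labels or the design text. If it was Cy5, a positive value stands for more RNA in the het gland, and if it was Cy3, for more in the null gland, with every sign turned. The ratios hold no signal level, so neither the abundance of a transcript nor the identity of the tissue could be checked from them. In whole gland RNA, fewer cells of a type and less RNA per cell cannot be told apart.

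The mammary epithelium draws glucose, amino acids, phosphate and zinc from blood for milk. Glucose enters through facilitative Slc2 carriers or sodium-coupled Slc5 carriers and becomes lactose in the Golgi. Amino acids enter through exchangers and sodium-coupled carriers, among them Slc7 light subunits that reach the membrane only when bound to a heavy subunit of the Slc3 family. Slc34 carriers bring in phosphate with sodium. Slc39 (ZIP) carriers raise zinc in the cytosol, and Slc30 (ZnT) carriers lower it, by export or by loading the Golgi and vesicles. A nonsense mutation of Slc30a4 causes the lethal milk trait of mice, in which the milk leaves pups short of zinc.

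The DNA before 5 transcript starts, of 4 carriers, is shown as examples. These carriers passed the test below or are among the best known of their family, and other carriers with such motifs are not shown. Motifs of GATA factors, of the zinc-sensing factor Mtf1 and of the amino acid response were looked for in this DNA. The sequences are the 250 bases before the start in RefSeq, build GRCm38.p6, written 5′ to 3′ on the strand of the gene. Capitals mark the motif named for each. The starts of Slc39a11 are listed by chromosome coordinate. Since the gene is on the minus strand, the start called first lies downstream of the other.
Slc30a6, GATA motif, chr17:74395358-74395607, plus strand: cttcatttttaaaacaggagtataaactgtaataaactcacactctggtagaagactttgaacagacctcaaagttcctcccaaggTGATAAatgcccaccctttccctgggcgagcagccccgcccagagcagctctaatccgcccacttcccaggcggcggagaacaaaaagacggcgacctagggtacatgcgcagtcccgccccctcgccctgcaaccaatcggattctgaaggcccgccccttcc
Slc39a11, metal response element, first start, chr11:113565816-113566065, minus strand: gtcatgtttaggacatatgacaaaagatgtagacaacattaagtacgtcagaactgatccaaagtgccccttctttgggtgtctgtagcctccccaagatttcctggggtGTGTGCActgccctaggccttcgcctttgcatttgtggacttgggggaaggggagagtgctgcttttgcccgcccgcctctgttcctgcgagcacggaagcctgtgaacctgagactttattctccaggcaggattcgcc
Slc39a11, metal response element, other start, chr11:113650093-113650342, minus strand: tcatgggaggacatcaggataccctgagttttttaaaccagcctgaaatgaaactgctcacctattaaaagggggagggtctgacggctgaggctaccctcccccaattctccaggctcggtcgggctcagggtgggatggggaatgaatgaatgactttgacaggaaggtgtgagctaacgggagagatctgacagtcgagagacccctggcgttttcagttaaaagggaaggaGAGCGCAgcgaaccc
Slc7a11, amino acid response element, chr3:50443614-50443863, minus strand: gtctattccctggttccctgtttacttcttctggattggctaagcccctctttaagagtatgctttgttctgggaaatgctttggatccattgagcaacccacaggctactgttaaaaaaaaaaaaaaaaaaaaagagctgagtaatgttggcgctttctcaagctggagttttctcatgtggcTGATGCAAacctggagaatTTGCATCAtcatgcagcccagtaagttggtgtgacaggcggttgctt
Slc30a4, metal response element, chr2:122702664-122702913, minus strand: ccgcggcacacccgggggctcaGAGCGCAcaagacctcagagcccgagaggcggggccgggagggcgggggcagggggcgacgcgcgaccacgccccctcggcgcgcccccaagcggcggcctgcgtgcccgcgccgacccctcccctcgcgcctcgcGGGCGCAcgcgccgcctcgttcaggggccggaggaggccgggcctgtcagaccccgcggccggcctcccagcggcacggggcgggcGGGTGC

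The motifs were searched on both strands in windows of 300 bases, 250 before and 50 from the start, and overlapping matches were each counted. A GATA match took one of 4 forms, of which AGATAA was the first, AGATAG the next, TGATAA the third and TGATAG the last. The metal response element was TGCACNC, with a second form TGCGCNC. The amino acid response element was TGATGCAA. Windows were given for 55 of the 73 carriers, but not for Slc7a5 and Slc5a12, which passed the test below. Of their 71 windows, 23 (32.4%) held a GATA motif, against 29.8% of all 32851 windows. By cargo these were 15 of 32 windows for amino acids, 3 of 16 for sugar, 5 of 20 for zinc and 0 of 3 for phosphate. A metal response element was in 19 (26.8%), against 25.7% of all windows, and by cargo in 10 of 20 windows for zinc, 4 of 32 for amino acids, 3 of 16 for sugar and 2 of 3 for phosphate. The amino acid response element was in 4 (5.63%), against 0.895% of all, and these belonged to Slc7a11, Slc7a7 and Slc1a4. In Slc30a6 the GATA match began 164 bases before the start, while its relative Slc30a7, which did not pass the test below, held 2 GATA matches. In Slc7a11 the matches began 66 and 47 bases before it, and in Slc30a4 228, 92 and 6 bases before it, the last running across the start. Slc30a1, whose sequence is not shown, held 2 metal response elements. They began 43 bases before the start and at base 31 from the start. A match is a run of letters and not a site known to be bound.

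Gata3, the floxed gene, was measured by 1 feature at 1.60 on array 1 and 0.21 on array 2, and did not pass the gene-level test (limma, adjusted p = 0.156). Whether its probe lies in the deleted stretch is unknown here, so this value does not check the labels. Array 1 had the wider spread over features, with an SD of 0.67 against 0.44.

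Each carrier was tested in a limma fit over all 15056 genes, ratio against 0, with Benjamini-Hochberg adjustment over all of them. The ZnT gene Slc30a6, the ZIP gene Slc39a11, the lactate carrier gene Slc5a12 and Slc7a5, the light subunit of the leucine exchanger LAT1, passed an adjusted p of 0.05, all with positive ratios. They are 5.48% of the 73 carriers, against 8.26% of all genes called and 7.28% called with a positive ratio. With a negative ratio 0 carriers passed, against 0.983% of all genes. At an unadjusted p under 0.05 (limma) 16 carriers were positive and 4 negative, which is 21.9% and 5.48%, against 17.1% and 6.67% of all genes. The share of carriers past the test was thus near that of all genes.

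All 4 genes past the test had 1 feature. Among all genes, 11.4% of those with 1 feature passed and 2.24% of those with more, and among carriers 4 of 38 and 0 of 35. When each feature was tested on its own, 0 of all 38976 features passed (limma, lowest adjusted p = 0.0512), and these 4 features had adjusted p from 0.0512 to 0.0555. Single features of carriers that did not pass lay in the same range. Examples are those of Slc7a4 (limma, adjusted p = 0.0512), Slc39a8 (0.0515) and Slc39a14 (0.0553), which were averaged with other features. With 2 arrays the smallest p an exact sign-flip test allows is 0.5, so every call leans on the variance that limma shares across genes.

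Across the 73 carriers the ratio was positive on both arrays for 29, negative on both for 21 and of opposite sign for 23. Over all genes, 33.7% were positive and 34.1% negative on both. The median carrier stood at 0.11 on array 1 and -0.03 on array 2, beside 0.01 and -0.01 for all genes. Array 1 and array 2 correlated across the carriers with Pearson's r at 0.705 and Spearman's rho at 0.645, beside 0.616 and 0.537 across all genes. These values describe genes measured on the same arrays, not replicates.

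**Figure D1:**
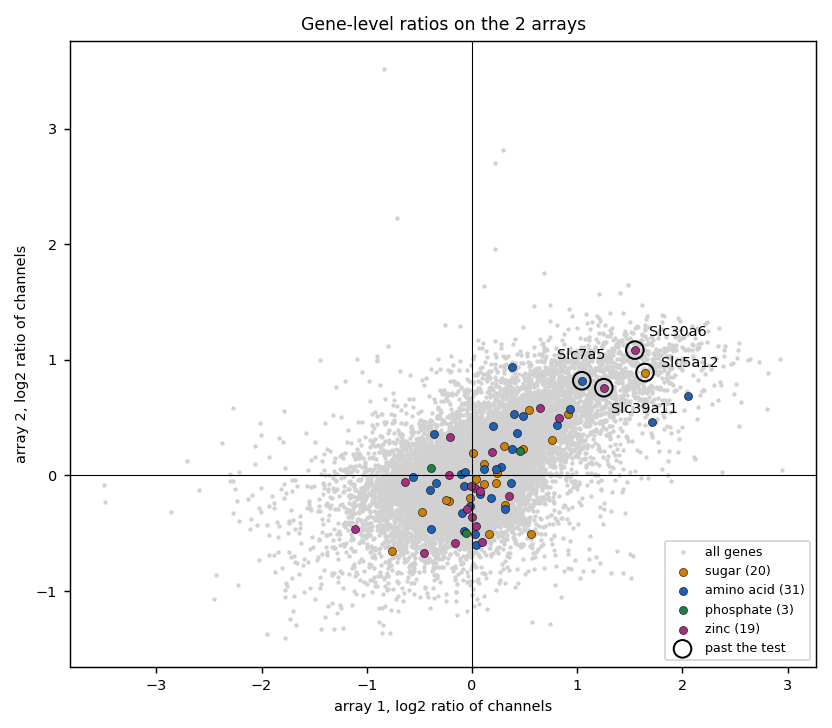
Gene-level log2 ratio of channels on array 1 (x axis) and array 2 (y axis) for all genes (grey) and for the 73 carriers, coloured by cargo, with circles around the 4 past the limma test. The circled genes lie in the upper right quadrant, between 1.04 and 1.64 on array 1 and between 0.76 and 1.08 on array 2, and most other carriers lie in the grey cloud around 0.

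In the sugar families, Slc5a12 was the 1 gene of 20 past the test, while 8.26% of all genes passed. Of the 20 genes, 9 were positive on both arrays, 5 negative on both and 6 split in sign. Over all genes, 33.7% were positive and 34.1% negative on both. The families' median was 0.19 on array 1 but -0.05 on array 2. The facilitative hexose carriers of Slc2 held 0 of 10 genes past the test (limma), with 2 positive and 1 negative at an unadjusted p under 0.05.

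Slc2a1 encodes GLUT1, which carries glucose into the lactating gland. It gave 0.16 on array 1 and -0.50 on array 2, opposite in sign. The mean was -0.17 ± 0.47 (SD, n = 2), with a 95% interval from limma of -0.69 to 0.35. Slc2a8, an intracellular glucose carrier also found in the lactating gland, stood at -0.47 and -0.32, negative on both arrays. All 3 of its features had negative means, from -0.52 to -0.25, and it did not pass (limma, adjusted p = 0.237). Slc2a4, the insulin-responsive carrier of fat and muscle, was at 0.48 and 0.23, positive on both, and did not pass (adjusted p = 0.299). Of the white adipocyte markers, 11 were measured, and their medians were -0.44 and -0.14. Of these, 2 were positive and 6 negative on both arrays. Skeletal muscle markers, 8 measured, had medians of -0.26 and -0.20. The part of either cell type in the Slc2a4 ratio was not tested.

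Slc2a5, a fructose carrier, had the most negative ratio of the sugar families, -0.76 on array 1 and -0.65 on array 2. Its mean was -0.70 ± 0.08 (SD, n = 2), a 1.63-fold difference, and its adjusted p was 0.0612 (limma). The most positive of the Slc2 genes in mean was Slc2a2, the GLUT2 carrier of liver and pancreatic islets, which stood at 0.91 and 0.53 (adjusted p = 0.0709). Its features disagreed. A pair of them gave 1.60 and 1.44 on array 1 and 0.90 and 0.85 on array 2, while the other gave -0.32 and -0.16. Slc2a12 was at 0.77 and 0.31 and did not pass. Slc2a3, the high-affinity neuronal glucose carrier, had a mean of 0.00, and the means of Slc2a6, Slc2a9, a urate carrier, and Slc2a10 ran from -0.10 to 0.10. Slc2a10 differed most between arrays, at 0.56 and -0.50.

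Of the sodium-coupled Slc5 genes, 5 carry sugars or polyols and 5 carry other solutes. None of the first 5 passed. At an unadjusted p under 0.05 (limma) 0 of them were positive and 0 negative. Slc5a1, the intestinal glucose and galactose carrier SGLT1, stood at -0.22 on both arrays, with a limma 95% interval of -0.64 to 0.20, and its features differed in mean, -0.47 and 0.03. Slc5a2, the renal SGLT2, was at 0.24 and 0.02. The inositol carrier genes Slc5a3 and Slc5a11 and the sugar carrier gene Slc5a9 had means from 0.02 to 0.08.

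Among the carriers of other solutes, Slc5a12 gave 1.64 on array 1 and 0.89 on array 2, high on both. The mean of 1.27 ± 0.53 (SD, n = 2) is a 2.41-fold difference and passed (limma, adjusted p = 0.0337, 95% interval 0.72 to 1.82). Slc5a12 is a low-affinity sodium-coupled carrier of lactate known from the kidney. Slc5a8, its high-affinity relative, went the other way at -0.25 and -0.21 and did not pass. Slc5a6, the carrier of biotin and pantothenate, stood at 0.54 and 0.56, nearly equal on the arrays, and did not pass (adjusted p = 0.112). Slc5a5, the iodide carrier that moves iodide into milk, was at 0.30 and 0.26. That value joins features of unlike sign, with means of 0.68 and -0.12. Slc5a7, the choline carrier of neurons, was at 0.01 and 0.19.

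Genes that use the imported glucose were taken as a list of 12, of which 8 were measured, and 0 passed (limma), with 2 positive and 0 negative at an unadjusted p under 0.05. Hk2, a hexokinase, stood at 1.09 and 0.47 (adjusted p = 0.0790). B4galt1, the catalytic subunit of lactose synthase, was at 0.60 and 0.35, and Lalba, its milk-specific partner alpha-lactalbumin, at -0.34 and -0.29. Galt, of galactose breakdown, was at -0.34 and -0.36.

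**Figure D2:**
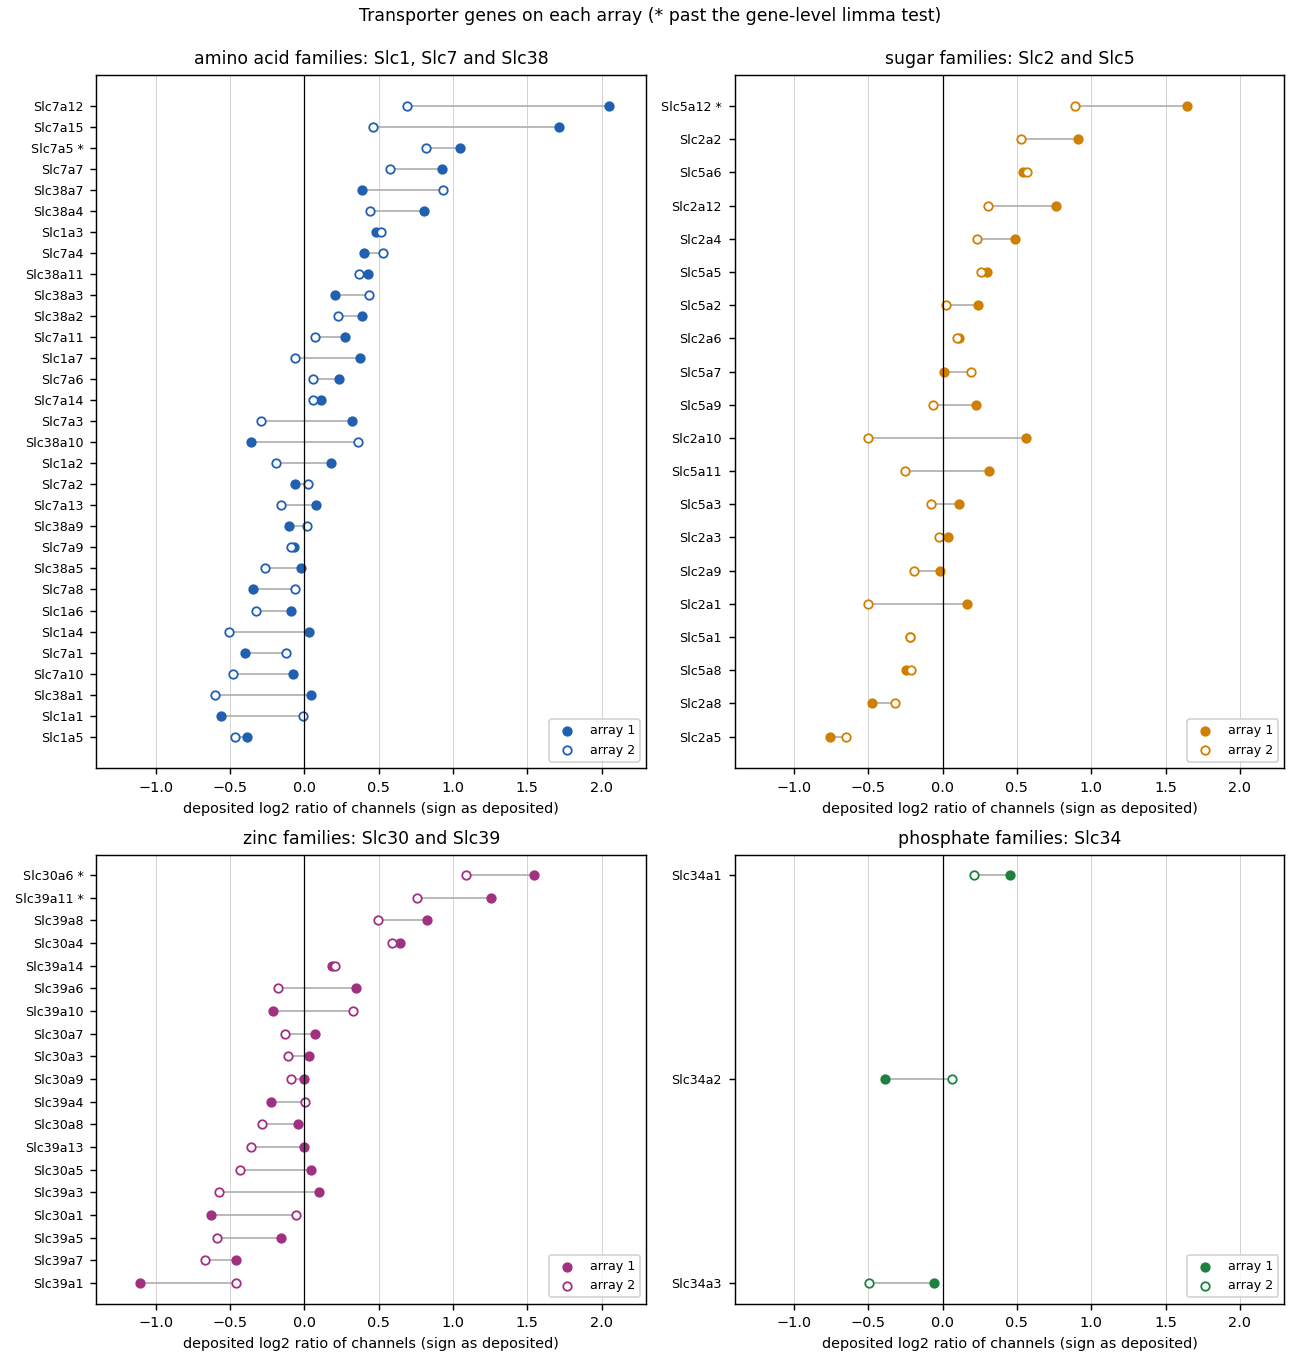
Deposited log2 ratio of channels (x axis) for each of the 73 carriers (rows, ordered by mean) on array 1 (filled points) and array 2 (open points), in a panel for each cargo, with an asterisk on the 4 genes past the limma test. Slc7a12 has the highest value, 2.05 on array 1, and Slc39a1 the lowest, -1.11 on array 1, and several lines cross 0.

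In the amino acid families, 14 of 31 genes were positive on both arrays, 8 negative on both and 9 of opposite sign. Over all genes, 33.7% were positive and 34.1% negative on both. Slc7a5 alone among the 31 passed the test, while 8.26% of all genes did. The families' medians were 0.18 and 0.03 on the respective arrays. The 4 highest means were those of light subunits of Slc7, while on array 2 the highest value was that of Slc38a7, 0.93.

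Slc7a5 gave 1.04 on array 1 and 0.82 on array 2. The mean of 0.93 ± 0.16 (SD, n = 2), a 1.91-fold difference, passed with an adjusted p of 0.0364 (limma, 95% interval 0.50 to 1.36). LAT1, its product, exchanges leucine and other large neutral amino acids for glutamine and works as a pair with the heavy subunit made from Slc3a2. Slc3a2, which lies outside the 8 families, had ratios of 1.12 and 1.04, the same sign and nearly the same size, and passed as well (limma, adjusted p = 0.0336, mean 1.08 ± 0.05, SD, n = 2). Both were measured by 1 feature each.

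The other light subunits that pair with Slc3a2 were spread on either side of 0. Slc7a7, a carrier of cationic and neutral amino acids mutated in human lysinuric protein intolerance, stood at 0.93 and 0.58, positive on both arrays, and did not pass (adjusted p = 0.0613). All 3 of its features were positive in mean, from 0.27 to 0.99. Slc7a6, a near relative, was at 0.23 and 0.06. Slc7a11, the cystine and glutamate exchanger whose upstream sequence is given above, was at 0.27 and 0.07, with a limma 95% interval of -0.26 to 0.60. Slc7a8, the LAT2 subunit, was at -0.34 and -0.07, and Slc7a10, which carries small neutral amino acids, at -0.08 and -0.48.

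Slc7a9, mutated in human cystinuria, pairs with the heavy subunit Slc3a1. Slc7a9 was at -0.07 and -0.09 and Slc3a1 at 0.12 and -0.55, and neither passed. Among the remaining light subunits, Slc7a12 had the highest mean of all carriers, 1.37 ± 0.96 (SD, n = 2), from 2.05 on array 1 and 0.69 on array 2, and lay just short of the threshold (limma, adjusted p = 0.0521). Slc7a15 stood at 1.71 and 0.46 (adjusted p = 0.0833). Slc7a13 was at 0.08 and -0.16.

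The cationic carriers of Slc7 held 0 of 5 genes past the test (limma), with 1 positive and 0 negative at an unadjusted p under 0.05. Slc7a1, the widespread carrier of arginine and lysine, was at -0.40 and -0.13, and both its features were negative in mean. Slc7a4 was at 0.40 and 0.53, but its 3 features had means of -0.20, 0.23 and 1.36. Slc7a2 had a mean of -0.02 that joined features at -0.56, -0.33 and 0.83. Slc7a3 was at 0.32 and -0.29, and Slc7a14 at 0.11 and 0.06.

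Slc1 holds glutamate carriers and a pair of neutral exchangers, and 0 of its 7 genes passed (limma), with 1 positive and 1 negative at an unadjusted p under 0.05. Slc1a5, the glutamine exchanger ASCT2, was at -0.39 and -0.47, negative on both arrays. Its mean of -0.43 ± 0.05 (SD, n = 2) did not pass (limma, adjusted p = 0.203). Its 4 features all had negative means, from -0.82 to -0.20, yet a pair of them were positive on array 1, at 0.07 and 0.21. ASCT2 supplies the glutamine that LAT1 exports, and its ratio was opposite in sign to those of Slc7a5 and Slc3a2. Slc1a4, its relative ASCT1, was at 0.03 and -0.51. Slc1a3, the glial glutamate carrier, was at 0.48 and 0.51 (adjusted p = 0.145), the other glutamate carrier genes Slc1a1, Slc1a2, Slc1a6 and Slc1a7 had means from -0.29 to 0.15, and none of these passed.

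Slc38 genes encode sodium-coupled carriers of glutamine, alanine and other neutral amino acids. Of the 9 genes, 5 were positive on both arrays and 1 negative on both, against 33.7% and 34.1% of all genes. The Slc38 medians on the arrays were 0.20 and 0.36. The median of the Slc38 gene means, 0.31, was the highest of the 8 families. Of the 9 genes 0 passed (limma), with 2 positive and 0 negative at an unadjusted p under 0.05. Slc38a7 stood at 0.38 and 0.93 (adjusted p = 0.109) and Slc38a4, a carrier known from the liver, at 0.81 and 0.44 (adjusted p = 0.102). Slc38a2, the carrier SNAT2 that is induced when amino acids run short, was at 0.38 and 0.23, with features at 0.55 and 0.07 in mean. Slc38a11 was at 0.43 and 0.37 from features of 0.95 and -0.16. Slc38a1 was at 0.04 and -0.60 and Slc38a10 at -0.36 and 0.36, each of opposite sign on the arrays. The arginine-sensing lysosomal protein Slc38a9 stood at -0.11 and 0.02, and the glutamine carriers Slc38a3 and Slc38a5 had means of 0.32 and -0.14.

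Of 18 listed heavy subunits and other amino acid carriers, 16 were measured and 2 passed, both positive and both with 1 feature. Over all genes 8.26% passed, and 11.4% of those with 1 feature. The list was drawn up with earlier results of these data known, so its count is not an independent result. Besides Slc3a2, the gene that passed was Slc6a20a, a proline carrier, at 1.37 and 0.89 (limma, adjusted p = 0.0336). Its close copy Slc6a20b was at 0.50 and 0.48 and did not pass. Slc6a14, a broad carrier of neutral and cationic amino acids, stood at 1.29 and 0.35 and Slc36a2, a proton-coupled carrier of glycine and proline, at -0.91 and -0.48, and neither passed.

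The phosphate family had 3 genes, 0 past the test (limma) and 0 in either direction at an unadjusted p under 0.05. Slc34a2, the sodium-phosphate carrier of gut, lung and lactating mammary epithelium, gave -0.39 on array 1 and 0.06 on array 2, opposite in sign, with a limma 95% interval of -0.63 to 0.31. Slc34a1, the main phosphate carrier of the kidney, was at 0.46 and 0.21, positive on both (adjusted p = 0.329). Slc34a3, another renal carrier, was at -0.06 and -0.49, negative on both (adjusted p = 0.460). The 3 genes thus had no common sign, and each was measured by 1 feature.

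Of 11 listed genes of phosphate handling outside the family, 10 were measured and 3 passed, all positive and all with 1 feature. Over all genes 8.26% passed, and 11.4% of those with 1 feature. The list was drawn up with earlier results of these data known, so its count is not an independent result. Slc20a1, the housekeeping phosphate carrier PiT1, stood at 1.52 and 0.76, and its mean of 1.14 ± 0.54 (SD, n = 2) passed (limma, adjusted p = 0.0381). Its relative Slc20a2, PiT2, was at -0.55 and -0.28 and did not pass. Slc9a3r1, the scaffold NHERF1 that holds Slc34 carriers at the membrane, was at 1.25 and 0.91 (adjusted p = 0.0336), while its relative Slc9a3r2 was at -0.83 and -0.09. Kl, the klotho co-receptor for the phosphate hormone Fgf23, was at 1.28 and 0.94 (adjusted p = 0.0336), and Fgfr1, its receptor partner, at -1.23 and -0.42, which did not pass. Xpr1, a phosphate exporter, was at 0.33 and 0.42.

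In the zinc families, 2 of 19 genes, Slc30a6 and Slc39a11, passed the test, both positive and both with 1 feature. Over all genes 8.26% passed, and 11.4% of those with 1 feature. Of the 19 genes, 5 were positive on both arrays, 7 negative on both and 7 of opposite sign. These shares over all genes were 33.7% positive and 34.1% negative on both. The families' medians on the arrays were 0.03 and -0.11. With a negative ratio 0 passed (limma). At an unadjusted p under 0.05 (limma) 4 were positive and 2 negative, against 17.1% and 6.67% of all genes.

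Among the ZnT genes, Slc30a6 gave 1.55 on array 1 and 1.08 on array 2. The mean of 1.32 ± 0.33 (SD, n = 2) is a 2.49-fold difference, with an adjusted p of 0.0336 (limma, 95% interval 0.84 to 1.79). On array 2 it had the highest value of the 73 carriers. ZnT6 has no zinc transport of its own and works in the early secretory pathway as a pair with ZnT5, the product of Slc30a5. Slc30a5 was at 0.04 and -0.43, opposite in sign on the arrays, with both features alike in mean at -0.23 and -0.16. ZnT7, which loads zinc into the same compartment, is made from Slc30a7, at 0.07 and -0.13.

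Slc30a4, the lethal milk gene, was at 0.64 on array 1 and 0.59 on array 2, positive and nearly equal. Its mean of 0.62 ± 0.04 (SD, n = 2), a 1.53-fold difference, did not pass (limma, adjusted p = 0.0863, 95% interval 0.20 to 1.03). Slc30a1, the zinc exporter of the cell surface and a target of Mtf1, was at -0.63 and -0.06, with both features negative in mean. The synaptic vesicle carrier gene Slc30a3, the insulin granule carrier gene Slc30a8 and Slc30a9 had means from -0.17 to -0.04. Slc30a2, which loads zinc into milk vesicles and is mutated in human mothers of zinc-deficient milk, was not analysed here.

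Among the ZIP genes, Slc39a11 gave 1.25 and 0.76, a mean of 1.01 ± 0.35 (SD, n = 2) or 2.01-fold, and passed (limma, adjusted p = 0.0375, 95% interval 0.53 to 1.48). Slc39a8, a carrier of zinc and manganese, stood at 0.83 and 0.50 and did not pass (adjusted p = 0.0843). Its features differed, with means of 1.22 and 0.11. Slc39a14, its near relative that also carries iron, was at 0.19 and 0.21 and joined features of opposite sign, 0.91 and -0.52 in mean.

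The lowest ratio of all carriers was that of Slc39a1, the surface zinc importer ZIP1, at -1.11 on array 1 and -0.46 on array 2. Its mean of -0.78 ± 0.46 (SD, n = 2) did not pass (limma, adjusted p = 0.0809). Slc39a7, ZIP7, which releases zinc from the endoplasmic reticulum, was at -0.46 and -0.67, negative on both, and did not pass (adjusted p = 0.114). Slc39a5 was at -0.16 and -0.59. Slc39a6, known as LIV-1 and estrogen-regulated in human breast cancer cells, was at 0.35 and -0.18, opposite in sign, with a limma 95% interval of -0.40 to 0.57. Slc39a4, the intestinal importer mutated in human acrodermatitis enteropathica, was at -0.22 and 0.01. The remaining genes Slc39a3, Slc39a10 and Slc39a13 had means from -0.24 to 0.06.

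Zinc-binding metallothioneins and zinc regulators made a list of 6, all measured, with 5 negative on both arrays and 0 positive on both. Over all genes, 34.1% were negative and 33.7% positive on both. The list was drawn up with earlier results of these data known, so its count is not an independent result. Mt4, the metallothionein of stratified squamous epithelium, passed with -1.89 on array 1 and -0.69 on array 2 (limma, adjusted p = 0.0492). Mt2 was at -1.85 and -0.40 (adjusted p = 0.0984), Mt1 at -0.70 and -0.01, and Mtf1, the zinc-sensing factor, at -0.25 and -0.49, and these did not pass. Mt3, the metallothionein of the brain, was at -0.06 and 0.10. The negative ratios of Mt1, Mt2 and Mt4 were larger on array 1 than on array 2.

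**Figure D3:**
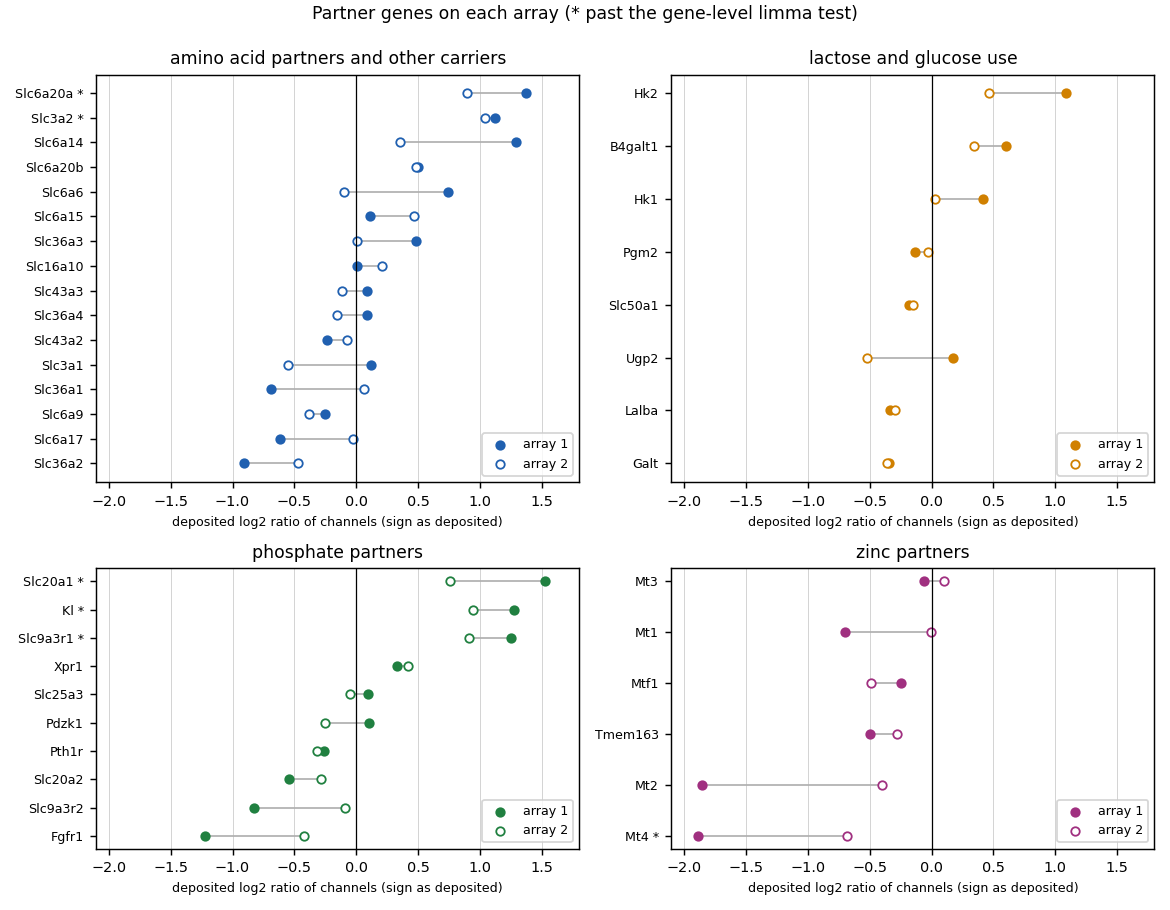
Deposited log2 ratio of channels (x axis) for the listed partner genes (rows) on array 1 (filled points) and array 2 (open points), with an asterisk on those past the limma test. Slc3a2 lies at 1.12 and 1.04 near its light subunit's values, Slc20a1, Kl and Slc9a3r1 lie above 0.75 on both arrays, and Mt4 lies lowest at -1.89 and -0.69.

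Features of the same gene often disagreed. Of the 35 carriers with several features, 18 had features of one sign in mean and 17 of both signs. The median SD over the features of a carrier was 0.32 on array 1 and 0.27 on array 2. Slc7a4, with features 1.56 apart in mean, Slc2a2 (1.49), Slc39a14 (1.43) and Slc7a2 (1.39) spread most. It is unknown here whether they are different probes or spots of 1 probe. The 4 carriers past the test had no other feature to set beside their values.

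**Figure D4:**
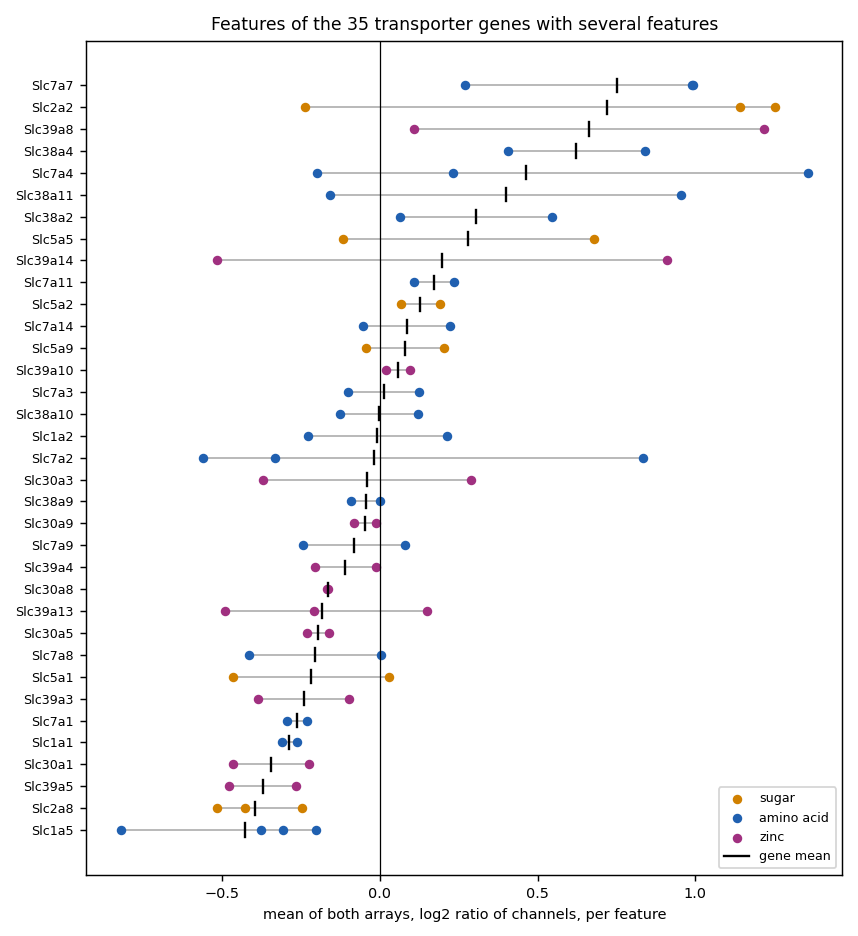
Mean log2 ratio of both arrays (x axis) for each feature (points) of the 35 carriers with several features (rows, ordered by gene mean), coloured by cargo, with a black bar at the gene mean. The points of 17 genes lie on either side of 0, and the points of Slc7a7 and Slc2a8 lie on one side.

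Markers of the cell types in the gland were compared beside these values. Luminal markers, 12 measured, had array medians of -0.08 and -0.02, with 2 positive and 6 negative on both. Basal markers, 7 measured, stood at -0.08 and -0.17, and milk protein genes, 6 measured, at -0.27 and 0.19. Fibroblast markers, 5 measured, had a median of -1.77 on array 1 but -0.07 on array 2, macrophage markers, 5 measured, -0.22 and -0.10, lymphocyte markers, 6 measured, -0.12 and -0.02, and endothelial markers, 5 measured, 0.26 and 0.16. Of all these markers Krt5 (-0.97), Csn3 (0.93) and Cd3g (0.89) passed the gene-level limma test, each alone in its list, while 8.26% of all genes passed. Other members of their lists had means of the opposite sign, such as Krt14 (0.805), Csn2 (-0.34) and Cd3e (-0.35). Basal markers were positive on both arrays for 2 and negative on both for 4. These counts were 2 and 2 for milk protein genes and 1 and 2 for lymphocyte markers, so none of these lists had a common sign. Fibroblast markers were positive on both arrays for 0, negative on both for 3 and of opposite sign for 2. Their means were all negative, the highest at -0.12. The part of cell makeup in the carriers' ratios was not tested.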

How the data were processed

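Mammary gland RNA of het and null mice was compared on 2 two-colour spotted arrays. Per the series' design text, the authors extracted RNA with Trizol and ran print-tip lowess in Acuity. What they deposited is a log ratio of the channels per feature, taken here as log2 because of its range. Neither labels nor design text name the base, the numerator, any centring, the background correction or spot filters, and another base would rescale every value. Of 38976 features, 22973 had 1 gene symbol, 0 several and 16003 none in the platform annotation. All 15056 genes matched RefSeq by Entrez ID. There were 0 unused columns of values.

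Features of a gene were averaged on each array. The gene values were set against 0 in limma 3.58.1, run in R 4.3.3 (intercept alone, empirical Bayes, two-sided, Benjamini-Hochberg over all genes, threshold 0.05). Each gene had 1 residual degree of freedom and the prior added 5.41. Without spot intensities, dim spots could not be filtered. Precision is limited by the number of arrays. The procedure was run on simulated data. Recovery was required there only of planted ratios larger than any carrier's, so the run does not show the power at the sizes reported. The members, the partner and marker lists and the alternatives were chosen with earlier results of these data known. Named in full were carriers past the test, up to 3 a family in each direction with one sign on both arrays, and 20 carriers picked for their known roles. The others are given in ranges or in short. Partner genes named are those past the test and up to 3 a list by absolute mean, and the others were added for their known roles after their values were seen. No set test was run. Figures were drawn with matplotlib 3.10.9.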

Additional observations from a re-analysis of the deposited data

How the results depend on the processing

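The count of 4 carriers past the test (4 positive, 0 negative) and of 1244 genes lay close to the threshold, since the lowest adjusted p was 0.0336. With each feature tested alone 0 carriers and 0 genes passed, and limma's treat against 0.5 also gave 0 and 0. The carriers numbered 9 (8 positive, 1 negative) of 1793 genes after median centring of each array, 13 (11 and 2) of 2052 genes with equal median absolute deviation and 15 (12 and 3) of 2391 genes after quantile normalization. They numbered 16 (13 and 3) of 2815 genes without features more than 1 apart between arrays, a filter that by construction removes the widest spreads and left 3 carriers without a value, and 12 (10 and 2) of 2113 genes at an adjusted p of 0.1. The median of features in place of the mean gave 6 of 942 genes, and a robust prior 4 of 1183. The 4 carriers passed, in the same direction, under all 6 of these fits other than treat and the test of features.

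Only the carriers named in full by the rule above were followed singly through these settings, and Slc7a7 was not among them. The counts above can thus hold carriers not named here. Of those followed, the averaged ratios as deposited left Slc2a2, Slc2a5, Slc7a12 and Slc7a15 short of the threshold. These passed after median centring, equal median absolute deviation and quantile normalization alike. Family medians moved by less than the spread of the arrays under the median of features, the discordance filter and each rescaling. The cause of these changes was not tested. With 1 array left out they ran from -0.046 to 0.193 for sugar, 0.026 to 0.179 for amino acid, -0.058 to 0.061 for phosphate and -0.109 to 0.029 for zinc genes. With 1 array there is no test. The genotypes were paired within each array, and the test of the ratio against 0 uses that pairing. With 1 group of arrays no other pairing was possible.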
